A study of Homo sapiens and Mus musculus with 4 samples.

Results

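Costimulatory and inhibitory checkpoint receptors were described in 4 cell lines, each measured by 1 bulk messenger RNA library. The members were 10 human genes taken from a given list, CD28, ICOS, CTLA4, PDCD1, LAG3, HAVCR2, TIGIT, CD27, BTLA and TNFRSF9, and the 10 mouse genes of the same symbols. All 20 were in the table, out of 32738 human and 27998 mouse genes. The human genes were read in Jurkat, a leukaemic human T-cell line described as CD4+, and in TALL104, a human CD8+ T-cell leukaemia line grown with interleukin-2. The mouse genes were read in EL4, a mouse T-cell lymphoma line that the study calls CD4+, and in IVA12, a mouse B-lineage hybridoma. No stimulation or genetic change was named for any line, and each is an established culture line rather than a normal lymphocyte population. The study used these libraries as a reference for single-cell methods.

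T cells are activated through the antigen receptor together with a further signal through costimulatory receptors. CD28 and ICOS are costimulatory receptors of the immunoglobulin superfamily, and CD27 and TNFRSF9 (4-1BB) are costimulatory receptors of the TNF receptor family. CTLA4, PDCD1 (PD-1), LAG3, HAVCR2 (TIM-3), TIGIT and BTLA dampen T-cell activation and are known as immune checkpoints. CD28 is present on most resting T cells, while ICOS, CTLA4, PDCD1, LAG3, HAVCR2 and TNFRSF9 are known to be induced by activation, and several of the inhibitory receptors stay high on exhausted T cells. The genes CD28, CTLA4 and ICOS lie side by side in that order on the same strand, and this order is the same in human and mouse.

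Levels are given as FPKM, read fragments relative to the length of the gene and the size of the library, with the reads recovered from them. The library totals recovered as the divisor of the FPKM lay between 25286728 and 34783047, and need not equal the reads sequenced. Intervals are 95% counting intervals of the recovered reads, exact Poisson intervals for 1 level and exact conditional intervals for a ratio of 2 levels. Counting error is all they cover, because reads do not stand for separate molecules and no other culture of any line was measured. With 1 library per line there was no replicate check and no test was made. Detection meant 1 FPKM or more, and 2 lines differed where the ratio of FPKM + 1 was over 1.5-fold. In bulk RNA, fewer expressing cells and less RNA per cell cannot be told apart.

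The labelled cell types were checked against 11 T cell markers and 11 B lineage markers. All 11 T cell markers were detected in Jurkat and in TALL104, and 10 of 11 in EL4, where Cd7 had 0 reads. In IVA12, 2 of 11 were detected, Cd2 at 9.99 FPKM and Cd3g at 1.15 FPKM. Of the 11 B lineage markers, 6 were detected in IVA12 and 1 in EL4, and 7 were higher in IVA12 by over 1.5-fold. The 1 that was higher in EL4 by that much was Cd22, at 1.75 FPKM against 0.119 FPKM in IVA12. The plasma cell genes Jchain and Mzb1 had 1289 and 499 FPKM in IVA12, and the B cell genes Cd79b, Ms4a1 and Blnk had 163, 46.5 and 39.6 FPKM, while Cd79a and Pax5 were near 0, at 0.0543 and 0.156 FPKM. In the human T-cell lines, 2 of the 11 B lineage markers were detected in Jurkat and 4 in TALL104. CD79A had 16.5 FPKM in Jurkat and 24.6 FPKM in TALL104, MZB1 had 47.7 and 8.88 FPKM, and CD79B had 0.0415 and 4.80 FPKM. The part of these B lineage genes in the receptor levels was not tested. The 8 NK cell markers were higher by over 1.5-fold in TALL104 in 8 of 8 cases, and their summed level was 12.2 FPKM in Jurkat and 1384 FPKM in TALL104. The part of these NK cell genes in the receptor differences below was not tested. CD4 itself was low in both lines called CD4+, at 0.985 FPKM in Jurkat and, for Cd4, 0.208 FPKM in EL4.

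The leading receptor differed between the lines of each species. In Jurkat, CD28 made up 95.01% of the summed FPKM of the 10 receptors. In TALL104, ICOS led with 51.1% of that sum, and HAVCR2 followed with 26.5%. In EL4, Pdcd1 led with 55.3%, followed by Cd28 with 28.7%. In IVA12, Cd28 made up 72.5% of a sum of only 1.69 FPKM, while the sum was 60.4 FPKM in Jurkat, 33.7 FPKM in TALL104 and 209 FPKM in EL4. Of the 10 receptors, Jurkat had 2 detected, TALL104 had 3, EL4 had 6 and IVA12 had 1.

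**Figure D1:**
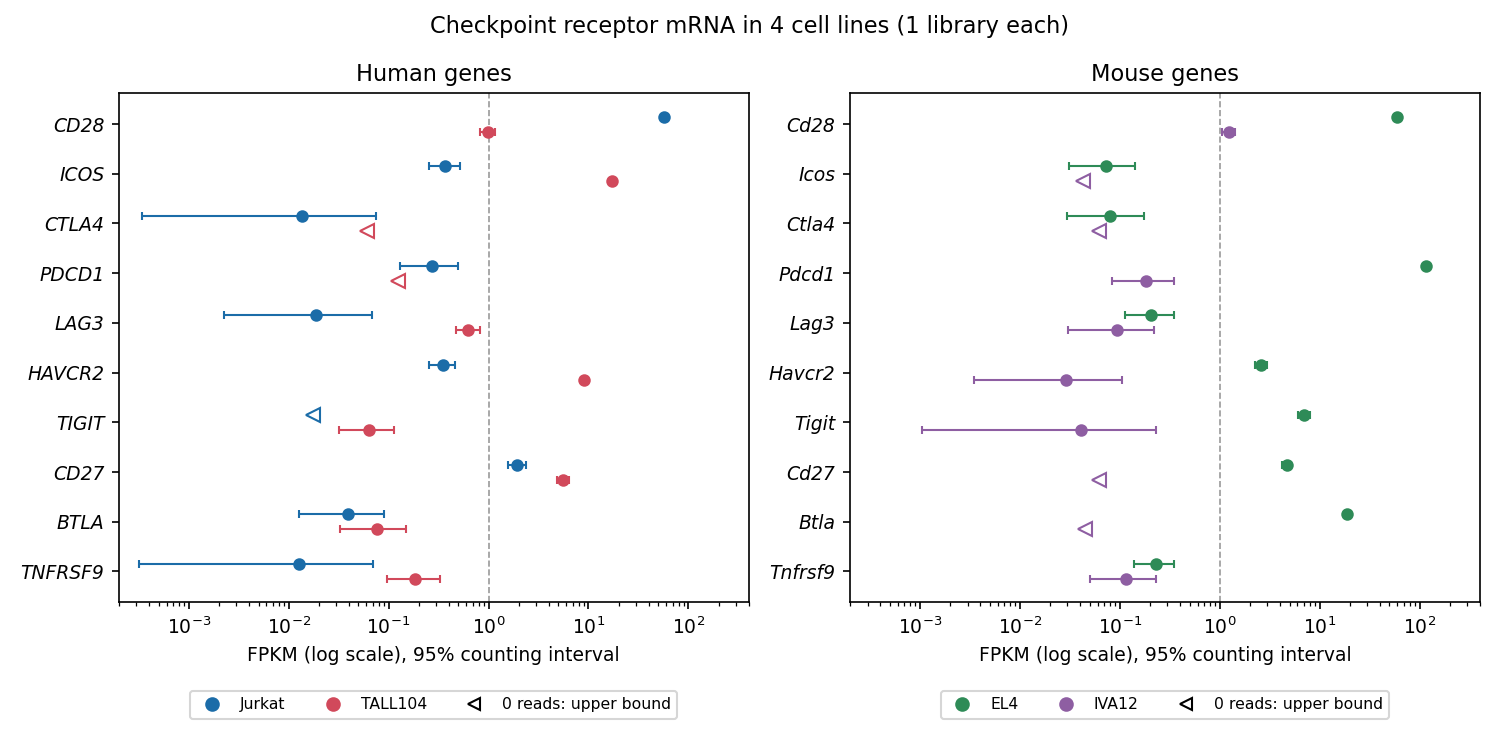
FPKM of the 10 receptors on a log axis, human genes in Jurkat and TALL104 and mouse genes in EL4 and IVA12. Points are 1 library each, bars are 95% counting intervals, open triangles mark the upper bound of genes with 0 reads, and the dashed line marks 1 FPKM. CD28 lies near 60 FPKM in Jurkat and EL4, ICOS and HAVCR2 stand out in TALL104, and Pdcd1 is the highest point, at 116 FPKM in EL4.

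Between the human lines, 5 of 10 receptors differed by over 1.5-fold, 1 higher in Jurkat and 4 higher in TALL104. Over all human genes, 25.3% differed by that much, 13.8% higher in Jurkat and 11.4% higher in TALL104. Among human genes with at least 1 FPKM in either line the share was 62.6%. The 4 receptors at that level were CD28, ICOS, HAVCR2 and CD27. CD28, ICOS and HAVCR2 reached it only in the line where they were higher, so a count among these receptors adds nothing to their ratios. Between the mouse lines, 6 of 10 receptors differed, and all 6 were higher in EL4. Over all mouse genes, 21.0% differed, 9.75% higher in EL4 and 11.2% higher in IVA12. The share was 50.3% among genes with at least 1 FPKM in either line. The 6 receptors at that level were Cd28, Pdcd1, Havcr2, Tigit, Cd27 and Btla. All but Cd28 reached it only in EL4, where they were higher, so a count among these receptors again adds nothing to their ratios. No mouse receptor was higher in IVA12 by over 1.5-fold. The median log2 ratio over the 10 receptors was −0.16 for Jurkat over TALL104 and 2.16 for EL4 over IVA12, against a median of 0 over all genes of each species. Over genes detected in both lines of a pair, which most of the receptors were not, the medians were 0.10 and −0.02. With genes at 0 in 1 line set to 3 reads, the medians over the receptors were −0.15 and 2.12.

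**Figure D2:**
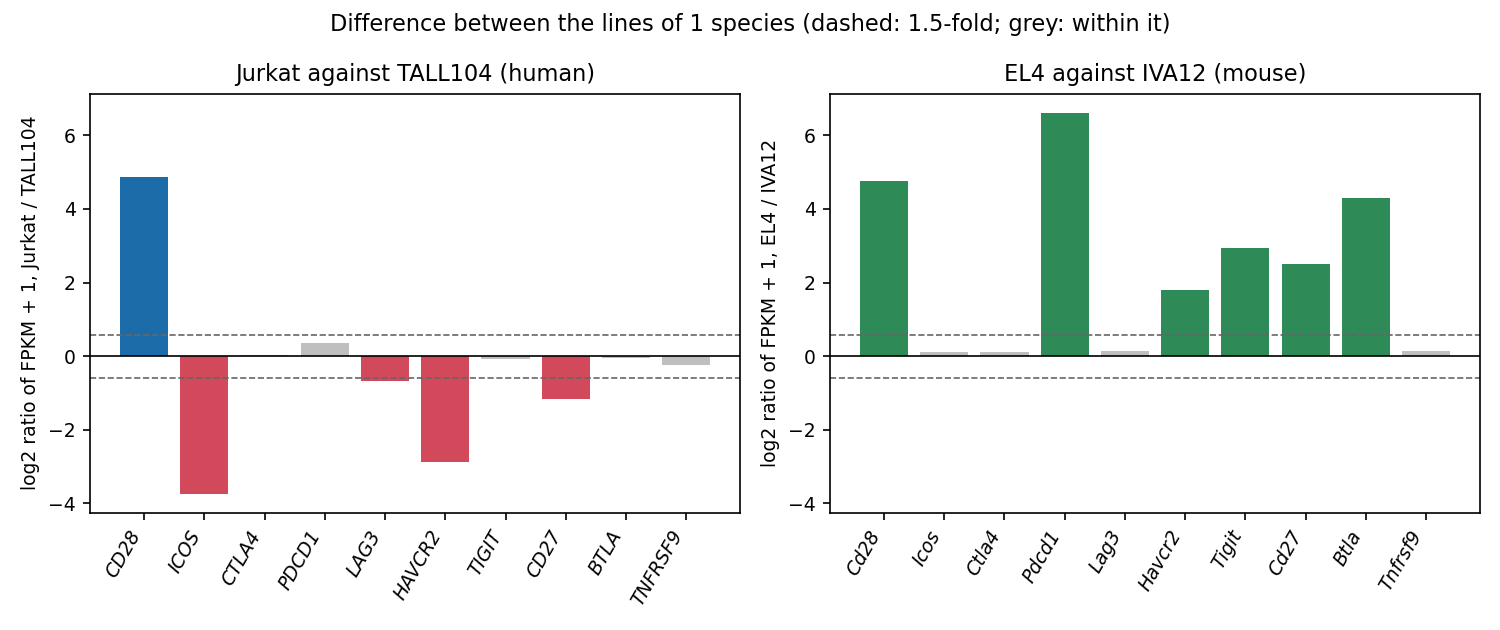
Log2 ratio of FPKM + 1 for each receptor, Jurkat over TALL104 on the left and EL4 over IVA12 on the right, with dashed lines at 1.5-fold and grey bars within them. CD28 is the only human bar past the upper line, at 4.87, while ICOS, LAG3, HAVCR2 and CD27 pass the lower line and all 6 coloured mouse bars point toward EL4.

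CD28, the main costimulatory receptor for CD80 and CD86, was the receptor with the largest difference between the human lines. Jurkat had 57.4 FPKM (9746 reads, interval 56.2 to 58.5), rank 658 among protein-coding genes, and TALL104 had 0.989 FPKM (137 reads, 0.831 to 1.17). The interval in TALL104 spanned the detection threshold, so whether CD28 counts as detected there was within counting error. The ratio of the 2 levels was 58.0 (49.0 to 69.1). The mouse gene had a like pair of levels, 59.9 FPKM in EL4 (11782 reads, 58.8 to 61.0) and 1.23 FPKM in IVA12 (190 reads, 1.06 to 1.41), a ratio of 48.8 (42.3 to 56.6). CD28 spans chromosome 2, 204571198 to 204603635 (hg19), and Cd28 spans chromosome 1, 60716800 to 60773359 (mm10).

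The Cd28 level in IVA12 was a larger share of the EL4 level than that of 8 of the 10 T cell markers detected in EL4. Cd28 in IVA12 stood at 2.05% of EL4. The markers nearest below it were Cd3g at 0.651% (31 reads in IVA12) and Lck at 0.546% (39 reads). Lower ones included Lat at 0.135% (10 reads), Cd3e at 0.0433% (1 read) and Cd3d at 0.0152% (1 read). Cd247 and Cd2 stood higher still, at 3.35% and 56.1%. Trat1, Cd27 and Btla had 0 reads in IVA12. Reads on members of the other species, from the combined human and mouse reference, were at most 2 for a human gene in a mouse library and at most 3 for a mouse gene in a human library.

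ICOS, the inducible costimulator that binds ICOS ligand, went the other way from CD28 in the human lines. It had 0.370 FPKM in Jurkat (34 reads, 0.256 to 0.516) and 17.2 FPKM in TALL104 (1293 reads, 16.3 to 18.2), a ratio of 46.7 (33.2 to 67.7) toward TALL104. In mouse, Icos had 8 reads in EL4 (0.0725 FPKM) and 0 in IVA12, where 3 reads would be 0.0346 FPKM. CTLA4, the inhibitory receptor that shares ligands with CD28 and lies 62798 bases from ICOS, was close to 0 in every library. It had 1 read in Jurkat (0.0136 FPKM) and 0 in TALL104, and Ctla4 had 6 reads in EL4 (0.0801 FPKM) and 0 in IVA12. So in TALL104 the 3 neighbouring genes stood at 0.989, 0 and 17.2 FPKM in the order CD28, CTLA4 and ICOS, and in Jurkat at 57.4, 0.0136 and 0.370 FPKM.

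The 250 bases before the RefSeq start of ICOS and of its neighbour CTLA4 are shown because these adjacent genes had such unlike levels in TALL104. They come from RefSeq promoter windows, which held 8 of the 10 human members, and were placed in hg19 by an exact match, where 0 annotated exons overlapped either. The ICOS window lies at chr2:204801236-204801485 and the CTLA4 window at chr2:204732244-204732493, both on the plus strand. The RefSeq start of ICOS is the annotated gene start used here, whereas the annotated CTLA4 gene begins further upstream, at 204718611, so the CTLA4 window lies within that gene's span. Capitals mark letters of a searched motif.
ICOS: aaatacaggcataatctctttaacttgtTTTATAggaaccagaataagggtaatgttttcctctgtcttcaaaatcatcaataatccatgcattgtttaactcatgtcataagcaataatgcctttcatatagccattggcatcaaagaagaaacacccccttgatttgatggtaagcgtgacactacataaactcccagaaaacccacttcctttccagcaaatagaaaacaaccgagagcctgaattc
CTLA4: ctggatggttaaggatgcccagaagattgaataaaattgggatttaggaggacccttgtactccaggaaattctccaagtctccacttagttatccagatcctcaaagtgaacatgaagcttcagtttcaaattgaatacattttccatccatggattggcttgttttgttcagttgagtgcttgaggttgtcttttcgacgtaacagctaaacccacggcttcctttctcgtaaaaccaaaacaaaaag
Motifs were searched on both strands. The letters were TGANTCA for AP-1 proteins. Those for the GATA family of factors were AGATAA. Those for RUNX proteins were TGTGGT. Those for ETS proteins were CCGGAA. Those for the core promoter box were TATAAA. The ICOS window held 1 match, the letters of the core promoter box on the minus strand 222 bases before the start, and the CTLA4 window held 0. Among 35116 human promoter windows of the same length, 6.57% held the AP-1 letters, 9.17% the GATA letters, 11.0% the RUNX letters, 14.5% the ETS letters and 10.7% those of the core promoter box. With 1 match in all, no matches overlapped, and a match describes the letters only.

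CD27, which binds CD70, had 1.94 FPKM in Jurkat (95 reads, 1.57 to 2.37) and 5.60 FPKM in TALL104 (224 reads, 4.89 to 6.39), a ratio of 2.89 (2.27 to 3.72) toward TALL104. The annotated exons of CD27 overlap those of TAPBPL on the same strand and of the antisense gene CD27-AS1, and whether the authors' counting used strand was not stated, so reads of these genes may not be told apart. TAPBPL had 4.89 FPKM in Jurkat and 21.8 FPKM in TALL104, and CD27-AS1 had 3.82 and 4.70 FPKM. In mouse, Cd27 had 4.66 FPKM in EL4 (349 reads, 4.19 to 5.18) and 0 reads in IVA12, at least 91.5-fold higher in EL4 when set against 3 reads. Tapbpl, 762 bases away, went the other way, with 3.52 FPKM in EL4 against 29.9 FPKM in IVA12.

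TNFRSF9, the receptor for TNFSF9 that marks recent activation, was below 1 FPKM everywhere. It had 1 read in Jurkat (0.0126 FPKM) and 12 in TALL104 (0.185 FPKM), a ratio of 14.7 with the wide interval 2.18 to 629. In mouse, Tnfrsf9 had 20 reads in EL4 (0.229 FPKM) and 8 in IVA12 (0.116 FPKM), and the interval of the ratio, 0.830 to 5.16, included 1.

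PDCD1 showed the largest gap of the mouse pair. Pdcd1, which encodes the PD-1 receptor for CD274 (PD-L1) and PDCD1LG2 (PD-L2), had 116 FPKM in EL4 (7171 reads, 113 to 118), rank 396 among protein-coding genes. In IVA12 it had 9 reads (0.184 FPKM), and the ratio was 627 (330 to 1371). Pdcd1 spans chromosome 1, 94038305 to 94052553 (mm10). The human gene was near 0 in both T-cell lines, with 10 recovered reads in Jurkat (0.272 FPKM, 0.130 to 0.5002) and 0 in TALL104, where the upper bound was 0.123 FPKM. The gene length recovered for PDCD1 was 1057 bases against 2097 annotated, so its read number may be a multiple of 10.

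BTLA, the receptor for TNFRSF14, was likewise high in EL4 alone. Btla had 18.7 FPKM there (1954 reads, 17.8 to 19.5) and 0 reads in IVA12, at least 512-fold higher in EL4 when set against 3 reads. The human gene had 5 reads in Jurkat (0.0389 FPKM) and 8 in TALL104 (0.0763 FPKM), and the interval of the ratio, 0.566 to 7.63, included 1. TIGIT, which binds PVR, had 6.98 FPKM in EL4 (216 reads, 6.08 to 7.97) and 1 read in IVA12, a ratio of 170 with the interval 30.2 to 6741. In the human lines TIGIT had 0 reads in Jurkat and 11 in TALL104 (0.0637 FPKM, 0.0318 to 0.114).

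HAVCR2, which encodes TIM-3, was the only inhibitory receptor detected in a human line. It had 0.348 FPKM in Jurkat (46 reads, 0.255 to 0.464) and 8.93 FPKM in TALL104 (963 reads, 8.38 to 9.51), a ratio of 25.7 (19.1 to 35.3). Exons of HAVCR2 overlap those of MED7 on the same strand in the annotation used, and MED7 had 5.55 FPKM in Jurkat and 5.87 FPKM in TALL104. In mouse, Havcr2 had 2.61 FPKM in EL4 (228 reads, 2.28 to 2.97) and 2 reads in IVA12 (0.0291 FPKM), a ratio of 89.7 (24.5 to 745). HAVCR2 spans chromosome 5, 156512433 to 156569880 (hg19).

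LAG3, a CD4-like receptor that binds MHC class II, was below 1 FPKM in all 4 libraries. It had 2 reads in Jurkat (0.0188 FPKM) and 54 in TALL104 (0.623 FPKM, 0.468 to 0.813), a ratio of 33.1 (8.74 to 281). On the FPKM + 1 scale this was 1.59-fold, just past the threshold. Lag3 had 14 reads in EL4 (0.206 FPKM) and 5 in IVA12 (0.0938 FPKM), and the interval of the ratio, 0.7496 to 7.81, included 1.

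Summed by role, the balance between the 4 costimulatory and 6 inhibitory receptors differed from line to line. Of the summed FPKM, the inhibitory receptors held 1.14% in Jurkat and 28.8% in TALL104, against 69.0% for EL4 and 20.6% for IVA12. Of the 6 inhibitory receptors, 0 were detected in Jurkat and 0 in IVA12. In IVA12 the highest of them, Pdcd1, had 9 reads, so the IVA12 share lies near the floor. Jurkat had a costimulatory sum of 59.7 FPKM and an inhibitory sum of 0.691 FPKM. TALL104 had 24.0 and 9.69 FPKM, EL4 had 64.8 and 144 FPKM, and IVA12 had 1.34 and 0.348 FPKM. Jurkat and EL4 had near costimulatory sums and unlike inhibitory ones, but these sums rest on human and mouse gene models and were not tested against each other. The costimulatory sums of both lines were mostly CD28, and the inhibitory sum of EL4 was mostly Pdcd1.

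**Figure D3:**
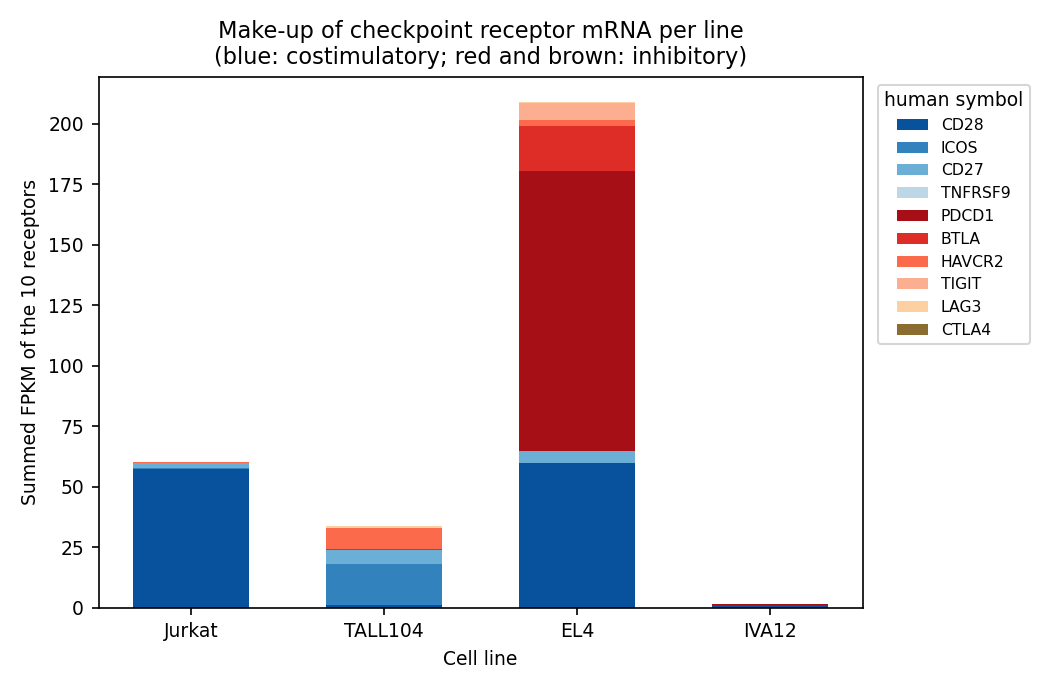
Stacked FPKM of the 10 receptors in each line, from 0, with costimulatory genes in blue and inhibitory genes in red and brown. The Jurkat bar is nearly all CD28, the TALL104 bar is ICOS, HAVCR2 and CD27, the EL4 bar is mainly Pdcd1 and Cd28, and the IVA12 bar reaches 1.69 FPKM.

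Within a line, some neighbours in the order of levels could not be told apart by their counting intervals. In Jurkat the order was CD28, CD27, ICOS, HAVCR2 and PDCD1, and the intervals of ICOS, HAVCR2 and PDCD1 overlapped from one to the next. In TALL104 the first 5, ICOS, HAVCR2, CD27, CD28 and LAG3, had separate intervals. In EL4 the first 6, Pdcd1, Cd28, Btla, Tigit, Cd27 and Havcr2, had separate intervals, and Tnfrsf9, Lag3, Ctla4 and Icos followed below 1 FPKM with intervals that overlapped from one to the next. In IVA12, Cd28 lay above the rest, whose intervals overlapped from one to the next.

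The ligands of the receptors were also read in the same libraries. Of 14 human ligand genes, 2 were higher in Jurkat and 5 in TALL104 by over 1.5-fold, with a median log2 ratio of −0.02. Of 14 mouse ligand genes, 4 were higher in EL4 and 4 in IVA12, with a median of −0.04. Over all genes, 25.3% of human and 21.0% of mouse genes passed the same threshold. Among genes with at least 1 FPKM in either line the shares were 62.6% and 50.3%. CD80 and CD86, the ligands of CD28 and CTLA4, were at most 1.04 FPKM in any library, the value of Cd80 in EL4. ICOSLG was at 0.0261 FPKM in TALL104, the line with the high ICOS.

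TNFSF9, the ligand of TNFRSF9, had 2.24 FPKM in Jurkat and 2.53 FPKM in TALL104, and Tnfsf9 had 3.97 FPKM in EL4 against 1.70 FPKM in IVA12. With genes at 0 in 1 line set to 3 reads, the ligand medians were −0.07 in human and −0.01 in mouse.

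The ligand genes with the largest differences between the human lines were TNFRSF14, CD70 and LGALS9. TNFRSF14, the ligand of BTLA, had 2.32 FPKM in Jurkat and 27.7 FPKM in TALL104. CD70, the ligand of CD27, had 1.44 FPKM in Jurkat and 18.4 FPKM in TALL104, in the same direction as CD27. LGALS9, which encodes galectin-9, a ligand of TIM-3, had 9.23 FPKM in Jurkat and 1.58 FPKM in TALL104, the reverse of HAVCR2. CEACAM1, another proposed TIM-3 ligand, had 0.213 FPKM in Jurkat and 2.94 FPKM in TALL104.

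In the mouse lines the 3 largest were Lgals9, Cd274 and Pvr. Lgals9 had 199 FPKM in EL4 against 12.3 FPKM in IVA12, in the same direction as Havcr2. Cd274, which encodes PD-L1, had 1.77 FPKM in EL4 against 23.1 FPKM in IVA12, opposite to Pdcd1. Pvr, the ligand of TIGIT, had 3.35 FPKM in EL4 against 14.7 FPKM in IVA12, opposite to Tigit. Pdcd1lg2 had 0.719 FPKM in EL4 and 0 reads in IVA12. Tnfrsf14 had 5.37 FPKM in EL4 against 1.09 FPKM in IVA12, and Cd70 had 0 reads in both.

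**Figure D4:**
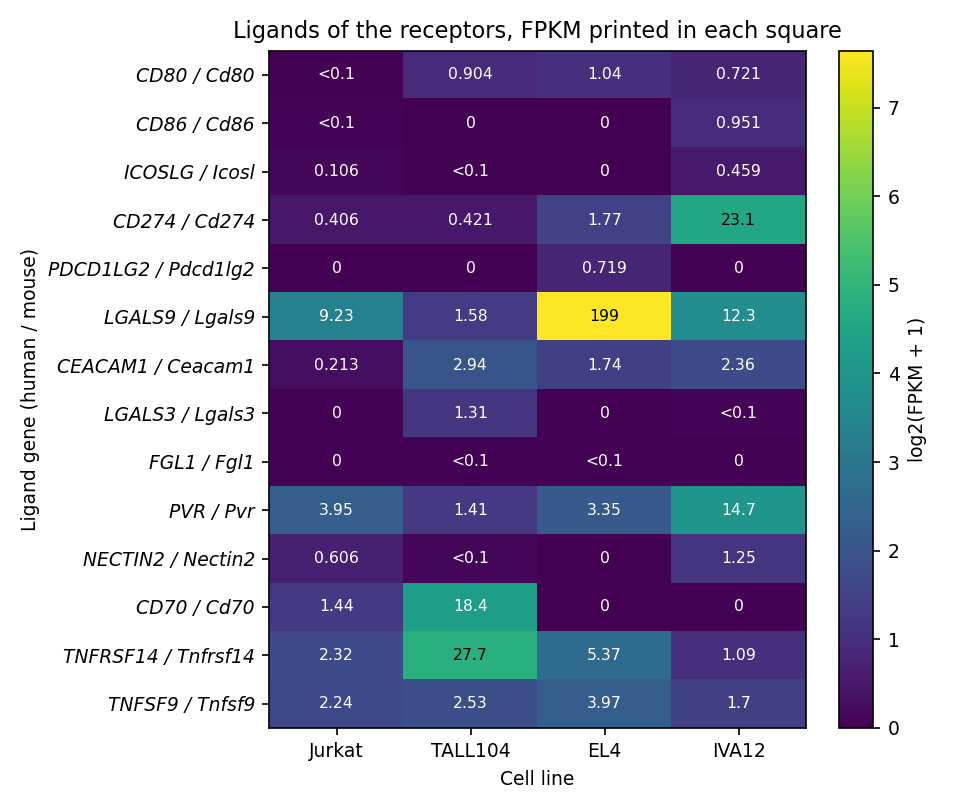
FPKM of 14 ligand genes in the 4 lines, coloured by log2(FPKM + 1) with the FPKM printed in each square and human genes read in the human lines. Lgals9 in EL4 is the brightest square at 199, followed by TNFRSF14 in TALL104 at 27.7 and Cd274 in IVA12 at 23.1.

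Other receptors, from a list of 11 related genes, were counted beside the members. In human, 3 were higher in Jurkat and 6 in TALL104, with a median log2 ratio of −0.75. CD96, which shares the ligand PVR with TIGIT, had 14.3 FPKM in Jurkat and 541 FPKM in TALL104, a log2 ratio of −5.15. TNFRSF25 had 0.506 FPKM in Jurkat and 12.2 FPKM in TALL104, while TNFRSF8 (CD30) had 7.19 FPKM in Jurkat and was at 0 in TALL104. In mouse, 10 of the 11 were found, 4 of them higher in EL4 and 1 in IVA12, with a median of 0.13. The shares over all genes were 25.3% in human and 21.0% in mouse. They were 62.6% and 50.3% among genes with at least 1 FPKM in either line. Cd96 had 35.6 FPKM in EL4 against 0.0181 FPKM in IVA12, Tnfrsf8 had 5.75 and 0.0572 FPKM, and Cd226, the activating counterpart of TIGIT, had 1.03 and 0 FPKM.

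Most genes of proximal signalling, which pass on or block the signals of these receptors, were detected in every line. Of 18 human genes, 3 were higher in Jurkat and 7 in TALL104, with a median log2 ratio of −0.25. PIK3CD, a catalytic subunit of PI3-kinase, had 6.60 FPKM in Jurkat and 87.4 FPKM in TALL104. INPP5D, the lipid phosphatase SHIP-1, had 5.004 and 67.3 FPKM, and TRAF1, an adaptor of TNF receptors, had 0.780 and 8.31 FPKM. Of 18 mouse genes, 4 were higher in EL4 and 1 in IVA12, with a median of 0.02. The shares over all genes were 25.3% in human and 21.0% in mouse. They were 62.6% and 50.3% among genes with at least 1 FPKM in either line. Ptpn6, the phosphatase SHP-1 that binds inhibitory receptors such as PD-1 and BTLA, had 266 FPKM in EL4 against 6.31 FPKM in IVA12. Ptpn11, the related phosphatase SHP-2, had 34.1 FPKM in EL4 against 25.7 FPKM in IVA12. Grap2 had 7.33 and 1.70 FPKM in EL4 and IVA12, and Traf5 had 0.177 and 4.18 FPKM.

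Of 15 transcription factors of T-cell activation and exhaustion, 2 were higher in Jurkat and 6 in TALL104, with a median log2 ratio of −0.19. TBX21 (T-bet) had 0.330 FPKM in Jurkat and 23.7 FPKM in TALL104, PRDM1 (Blimp-1) had 0.393 and 7.32 FPKM, and NFATC2 had 6.31 and 30.2 FPKM. In mouse, 7 were higher in EL4 and 4 in IVA12, with a median of 0.40. The shares over all genes were 25.3% in human and 21.0% in mouse. They were 62.6% and 50.3% among genes with at least 1 FPKM in either line. Tcf7 (TCF-1) had 597 FPKM in EL4 against 1.14 FPKM in IVA12, and Ikzf2 (Helios) had 23.7 and 0.0102 FPKM. Tox, a factor of exhausted T cells, had 23.1 FPKM in EL4 against 0.0156 FPKM in IVA12. In the human lines TOX had 41.0 FPKM in Jurkat and 34.6 FPKM in TALL104, where PDCD1 had 10 and 0 reads. The part of these factors in the receptor levels was not tested.

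For the 4 members with at least 10 FPKM in a library, the genes most like them over the 4 libraries were sought among 15540 genes with 1 shared symbol. Likeness was the largest difference in log2(FPKM + 1) over the 4 libraries, with the human gene read in the human lines. DNTT, the terminal transferase of immature lymphocytes, was most like CD28, with a difference of at most 1.03, and SOX4 followed with 1.24. ZBTB16 and GBP5 were most like ICOS (0.10 and 0.11). S1PR5 and WIF1 were most like PDCD1 (0.30 and 0.35), and PDLIM4 and PPP1R14C were most like BTLA (0.07 and 0.09). These are descriptions over 4 libraries, with no test.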

How the data were processed

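Messenger RNA libraries of 4 cell lines, 1 per line, were made by the authors with a stranded kit and sequenced as paired reads. Per the methods and the submitters' processing notes, the authors aligned them with STAR 2.5.1b to a combined hg19 (Ensembl 82) and mm10 (Ensembl 84) reference made with Cell Ranger 1.2.0 and counted them with featureCounts 1.6.3. The deposited values are FPKM, and the strand setting, the handling of reads with several alignments and the gene lengths are not given in the sources used here. The table had 0 further columns per library.

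Library totals and whole reads were recovered from the steps between FPKM values (gene lengths up to 300000 bases, relative tolerance 1e-12). For 3 of 10 human and 8 of 10 mouse members the length found this way was the annotated exon length, and other members' reads may share a missed factor. The recovery and the fold rule were tested on simulated data. Without gene lengths, exact reads came back for 83.4% of genes with reads in the simulated human pair and 83.2% in the mouse pair. All 200 genes set to differ in each pair, by 2-fold or more among well expressed genes, were called. So were 26 human and 12 mouse genes that were left unchanged. The simulated noise was counting noise only. With set folds above the 1.5-fold threshold, the calls were largely fixed by the setting. They check the code and say nothing of differences between cultures or of receptors at few reads. The totals recovered for the real libraries were 34783047 for Jurkat, 28345951 for TALL104, 32149319 for EL4 and 25286728 for IVA12. They are the divisors behind the FPKM and need not equal the reads sequenced. Ratios used a pseudocount of 1, which draws ratios of low genes toward 1, and a threshold of 1.5-fold. Symbols and positions came from GENCODE human release 44 on hg19 and mouse release M21 on mm10 by gene identifier. Libraries were grouped by cell line and compared within a species. With 1 library per line no test was made and no model for counts was used.

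All members are named, with the 3 genes of largest ratio in each list, ligands of at least 1 FPKM in a library, the 2 genes most like each member of at least 10 FPKM, and overlapping or neighbouring genes, of which some are not reported here. Ptpn11 and TOX, and the ligand genes CD86, ICOSLG, Cd70 and Pdcd1lg2, were named after their values were seen. The members and lists were chosen with earlier results of these data known. Alternatives were pseudocounts of 0.1 and 0.01, 3 scalings, a minimum of 1 FPKM, a 2-fold threshold, a counting interval that excludes 1, and detection at any FPKM, 0.1 and 5 FPKM. The tools were Python 3.11.15, SciPy 1.17.1, NumPy 2.4.6, pandas 2.3.3 and matplotlib 3.10.9.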

Additional observations from a re-analysis of the deposited data

How the results depend on the processing

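The receptors past the threshold were the same genes under all 3 scalings and where the counting interval had to exclude 1. A minimum of 1 FPKM and a 2-fold threshold each took LAG3 out, leaving 3 receptors higher in TALL104. A pseudocount of 0.1 gave 2 receptors higher in Jurkat, 6 in TALL104 and 10 in EL4, and one of 0.01 gave 3, 7 and 10, and no receptor was higher in IVA12 under either. The added receptors rested on 1 to 20 reads in the higher line. All human genes past the threshold numbered 12491, 15323 and 5022 with pseudocounts of 0.1 and 0.01 and a 2-fold threshold, against 8271, and mouse genes 8780, 11022 and 3420, against 5868. Receptors detected at any FPKM above 0 numbered 9 in Jurkat and 8 in TALL104, with 10 in EL4 and 6 in IVA12. At 0.1 FPKM they numbered 5 in Jurkat, 6 in TALL104 and 3 in IVA12, and at 5 FPKM 1 in Jurkat and 0 in IVA12. Of 100 recomputed log2 ratios of receptors, all 100 kept their sign. A change of pseudocount cannot alter a sign, nor can a scaling where a gene has 0 reads in 1 line, so in those cases this is no check. The size of the ratios did change with the pseudocount. At 0.01 the log2 ratio of CD28 went from 4.87 to 5.84 and that of PDCD1 from 0.35 to 4.82. No paired analysis was possible because each line has 1 library and the result comes from no test. With 1 library per line, differences between cultures were not measured, and ratios that rest on 1 or 2 reads in the lower line have wide counting intervals.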

Other observations

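The mitochondrial share of human FPKM was 14.9% in Jurkat and 20.6% in TALL104, and leaving them out of the scaling did not move any receptor across the threshold. The EL4 library had 23.6 FPKM of Fcer1g, a signalling chain of Fc and NK receptors, against 0 reads in IVA12, while Ncam1, Ncr1 and Klrd1 had 0 reads in both mouse lines. IVA12 had 22.5 FPKM of Cd68 and 18.0 FPKM of Spi1, while Csf1r had 0 reads and Cd14 had 0 reads there. These genes were taken from the NK cell and myeloid marker lists after their values were seen.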
